A study of Mus musculus with 2 samples.

Results

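The cells described here were 1363 CD8 T cells that carried transcripts of both Tox and Pdcd1, the gene of PD-1, among 17390 cells from a mouse melanoma model. A cell was selected when it had at least 1 unique molecular identifier (UMI, a tag that counts single captured RNA molecules) of Cd3e, Cd8b1, Pdcd1 and Tox. It also had 0 UMIs of Cd4, Foxp3, C1qa, Tcf7 and Ifng, at most 2 of the granzyme genes Gzmc to Gzmg, and at most 2 of the cycle genes Mki67, Top2a, Birc5, Cdk1 and Tpx2. Of the selected cells, called members below, 130 came from the untreated library and 1233 from the treated library. The CD8 gate formed by the Cd3e, Cd8b1, Cd4, Foxp3 and C1qa conditions alone held 8175 cells, 3667 untreated and 4508 treated. Members were thus chosen by the UMI counts of 19 genes, whose values are given as a description.

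The series profiled T cells of an Nras-mutated syngeneic melanoma at day 5, with the 10x Genomics 3′ assay, in 1 untreated library of 9312 cells and 1 library of 8078 cells under Trametinib with BGB-283. Trametinib inhibits the kinase MEK, and BGB-283 inhibits RAF kinases, so both act on the RAS to ERK signalling pathway that Nras mutation drives in the tumour cells and that the T cell receptor also uses. The design addresses how the T cells differ under the drug pair. Strain, age, doses and the number of mice behind each library are not given in the sources used here. With 1 library per condition there is no test between conditions. Intervals in parentheses are exact 95% intervals that cover counting error only, and treatment cannot be told apart from any other difference between the 2 libraries.

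PD-1 is an inhibitory receptor that T cells put on their surface after antigen contact and keep under lasting stimulation, and antibodies that block it are used to treat melanoma. Tox is a nuclear factor that lasting stimulation induces and that is needed to keep exhausted CD8 T cells, which hold several inhibitory receptors and lose part of their effector function. Tcf7 marks the stem-like precursors of such cells, which the rule left out. Calcium signals from the receptor act through NFAT factors on the Nr4a genes, while the RAS to ERK branch acts on genes such as Egr1.

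Cd8a, which the rule did not use, was at 803 CPM (757 to 849.7) in untreated members and 768 CPM (749.7 to 786) in treated members, where CPM is the usual counts-per-million scale, taken over the summed UMIs of the members of a library. Of the other 2 marker genes given for these cells, Lag3 had UMIs in 112 of 130 untreated and 971 of 1233 treated members, and Havcr2 in 62 and 303. The label was borne out for CD8 identity and for Lag3, whereas Havcr2 had 0 UMIs in most members of each library. Cell depth differed: the median was 10306 UMIs per untreated and 6810 per treated member, against 6764 and 6598.5 over the whole gate, with 1469111 and 9071993 UMIs in all. After each cell was thinned at random to 2000 UMIs, Lag3 was seen in 41.5% of untreated and 40.0% of treated members, against 1.30% of 77 B-like cells of the treated library (Cd79a and Ms4a1 UMIs, Cd3e and Cd8b1 at 0), whose median depth before thinning was 2956.5 UMIs.

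Markers of other cell types were present. Hbb-bs, a hemoglobin gene, had 1290 UMIs in untreated members, of which 99.8% lay in 1 cell. The dendritic cell list (11 genes, with Ccl22 at 0 in both libraries and Cd209a at 0 in untreated members) summed to 1468 CPM in untreated and 571 CPM in treated members. At least 1 of its UMIs was in 95 of 130 and 356 of 1233 members, but 16 untreated and 12 treated members held 1897 of 2157 and 4581 of 5183 of these UMIs. Macrophage genes summed to 64.7 and 180.3 CPM and B cell genes to 165 and 102 CPM. The natural killer list summed to 208 and 160 CPM, with a UMI in 60% and 38.7% of members, and the gamma delta list to 69.4 and 70.9 CPM, with a UMI in 21.5% and 23.8%. The helper and regulatory list had a UMI in 19.2% and 20.7% of members. Of their defining genes, Trdc and Cd40lg were at 0 in all members and Ncr1 in untreated ones. Leaving out members with 2 or more UMIs over the macrophage, dendritic, B, neutrophil and erythroid lists kept 25 untreated and 792 treated members, so ratios under that filter rest on few untreated cells. For genes whose levels in both libraries are given, the log2 ratio, treated over untreated, stands in the same paragraph wherever the filter turned it, moved it by over 1.5-fold or carried it across the 1.5-fold limit, with the value over all members in parentheses. Of the genes above, Cd8a was at 0.04 (from -0.06). Doublets were not removed, and 35 cell barcodes occurred in both libraries, of which 4 belonged to members and 0 to members of both.

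Members were a larger fraction of the treated CD8 gate. They made up 3.55% of gate cells in the untreated library (2.97 to 4.20) and 27.4% in the treated library (26.1 to 28.7). As a share of all cells this was 1.40% and 15.3%. Conditions on 0 or 1 UMIs depend on depth, so the rule was repeated on cells thinned to 2000 UMIs, where 50 of 2441 untreated (2.05%) and 375 of 2971 treated gate cells (12.6%) met it. These shares follow from the rule and are a description. Their intervals cover counting error over the cells of 1 library each and do not test the libraries against each other. Cells with an Ifng UMI, which the rule set aside first, made up 17.2% and 33.9% of the gate. Cells with Pdcd1 and Tcf7 made up 3.27% and 1.55%, and those with Tcf7 but neither Pdcd1 nor Tox 42.8% and 7.61%.

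**Figure D1:**
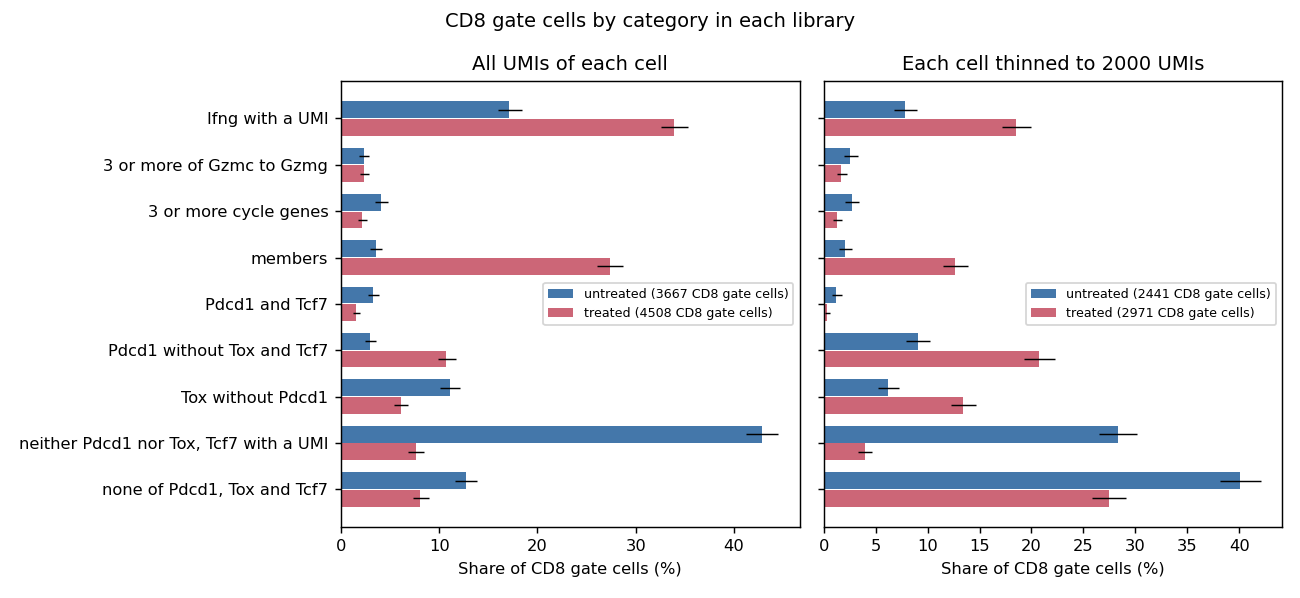
Share of CD8 gate cells (%) in each category, assigned in the order shown from top to bottom, in the untreated and treated libraries, with all UMIs (left) and after thinning each cell to 2000 UMIs (right); error bars are exact 95% binomial intervals. The bar of the members is longer for the treated library in both panels, at 27.4% against 3.55% and at 12.6% against 2.05%.

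Near the limits of the rule, 8 untreated and 97 treated members had just 1 UMI each of Pdcd1 and Tox. Their Lag3 level was 290 CPM and 257 CPM. Cells outside by Tox alone (109 and 484, Tox at 0) had Lag3 at 393 and 253 CPM, and cells outside by Pdcd1 alone (89 and 209) had it at 42.4 and 272 CPM. In the untreated library the Pdcd1-negative cells thus had less Lag3 than the members, at 361 CPM, while in the treated library the cells on both sides of the limit had similar levels. Cells outside by an Ifng UMI alone were almost as many as the members in the untreated library (120) and numbered 750 in the treated library. Their Gzmb was at 1547 and 303 CPM, against 821 and 313 CPM in the members.

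Over all genes measured, the treated members had more genes higher than lower. A gene counted as measured with at least 50 UMIs and 20 CPM in the members of 1 library, which 5340 genes reached. A difference was counted when it was at least 1.5-fold with an interval that excluded 1, which held for 2623 genes (49.1%), 1858 higher (34.8%) and 765 lower (14.3%) in treated members. The median over all genes measured was 0.24 on the log2 scale, treated over untreated, and list medians below are read against that value. With the median ratio set to 1 in place of CPM, 1274 genes were higher and 1230 lower, so the surplus of higher genes depends on the scaling. It depends on the minimum too. Untreated members held fewer UMIs in all, so 50 UMIs there is a higher level than the 20 CPM that admits a gene through treated members. Genes high in treated members thus entered more easily. At a minimum of 100 CPM, 492 genes were higher and 293 lower, and the median was 0.04. The counts of each list below are set against the same background of 34.8% higher and 14.3% lower, and a share near it is no result about the list.

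Havcr2, Ctla4 and Cd96 were lower in treated members, and no inhibitory receptor at the minimum was counted higher. Of 9 receptor genes measured, 0 were counted higher (background 34.8%), 3 lower (background 14.3%), and the list median was -0.37. The other 10 list genes in the table, among them Btla, Cd101, Klrg1 and Tigit, the last at 4.08 and 9.48 CPM, were below the minimum, and Cd244a was not analysed here. Havcr2, which encodes TIM-3, was at 72.8 CPM (59.7 to 88.0) in untreated members and 45.5 CPM (41.2 to 50.1) in treated members, 1.60-fold lower (1.28 to 1.98). Ctla4, the CTLA-4 receptor that competes with CD28 for its ligands, was at 356 CPM (326 to 388) in untreated members and 236 CPM (226 to 246) in treated members, 1.51-fold lower (1.37 to 1.66). Cd96, a receptor for nectin-family ligands, was at 150.4 and 99.9 CPM. Lag3, a receptor for MHC class II, was at 361 CPM (331 to 394) in untreated members and 280.0 CPM (269 to 291) in treated members, 1.29-fold lower (1.17 to 1.42), short of the 1.5-fold limit, as was Cd160 at 175 and 127 CPM. Entpd1, an ATP-degrading ectoenzyme of terminally exhausted cells, was at 34.7 and 39.9 CPM, and Vsir, the gene of VISTA, at 51.7 and 71.6 CPM. Pdcd1 itself was at 516 and 481 CPM and Tox at 227 and 377 CPM, both as selected. The calls for these receptors were not stable to depth: with the rule applied after thinning, Havcr2 had a log2 ratio of 0.14 and Cd96 of 0.87, against -0.68 and -0.59, and with members thinned after selection 0 of 9 receptors were counted in either direction. Other settings gave receptors counted higher, 2 of 17 with a minimum of 10 UMIs, 1 of 9 with at least 2 UMIs of Pdcd1 and Tox, and 1 of 10 with ribosomal and mitochondrial genes left out of the total. Without other-lineage members Lag3 was at -0.70 (from -0.37), Havcr2 at -1.34 (from -0.68), Ctla4 at -0.28 (from -0.59), Cd96 at -0.35 (from -0.59), Vsir at -0.23 (from 0.47) and Entpd1 at -0.51 (from 0.20), so Lag3 passed the 1.5-fold limit there and Ctla4 and Cd96 did not.

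How many receptors a cell showed at once was compared at equal depth. Counting Lag3, Havcr2, Tigit, Ctla4, Cd160 and Entpd1 in members thinned to 2000 UMIs, 40.8% of 130 untreated members had 2 or more of the 6 (32.2 to 49.7), against 30.8% of 1220 treated members deep enough to thin (28.2 to 33.5). None of the 6 was seen in 20.8% and 29.3%. For 2 or more receptors the intervals of the libraries overlap. For 4 or more they do not, at 3.85% of untreated (1.26 to 8.75, 5 cells) and 0.492% of treated members (0.181 to 1.07, 6 cells). That cut rests on few cells, and cells are not replicates of a condition. Among Pdcd1-positive cells with Tcf7, 18.3% and 20% had 2 or more, and among gate cells with neither Pdcd1 nor Tox, 0.597% and 5.06%.

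Among transcription factors of receptor stimulation and exhaustion, genes of the Nr4a and NFAT families were higher in treated members. Of 19 factors measured, 9 were higher (background 34.8%), 2 lower (background 14.3%) and 8 neither, and 7 were higher with the median ratio set to 1, with a median over CPM of 0.55. The orphan nuclear receptor gene Nr4a3 was at 77.6 CPM (64.0 to 93.2) in untreated members and 637 CPM (621 to 654) in treated members, 8.21-fold higher (6.82 to 9.97). After thinning it was seen in 67.1% of treated members and 13.1% of untreated members, and in 15.6% of the treated B-like cells. That last value is no floor for the untreated library, which had only 8 B-like cells, and whether B-like cells express Nr4a3 was not tested. Its relatives Nr4a2 and Nr4a1 were at 497 and 1236 CPM and at 68.7 and 147 CPM, with 27.7% of the untreated Nr4a1 UMIs in 1 cell. Without members carrying other-lineage UMIs the log2 ratio of Nr4a3 was 3.17, against 3.04. Nfatc1, a calcium-activated NFAT factor, was at 47.6 CPM (37.1 to 60.2) in untreated members and 195 CPM (186 to 204) in treated members, 4.09-fold higher (3.22 to 5.27), and Nfatc2 was at 6.13 and 27.7 CPM. Irf4, which the strength of receptor signalling raises in T cells, was at 8.17 and 23.3 CPM, Tbx21, the gene of T-bet, at 53.1 and 117 CPM, Rbpj, the nuclear partner of Notch, at 145 and 244 CPM, and Stat3 at 609.9 and 917 CPM. Without other-lineage members Nfatc2 was at 0.05 (from 2.18), Nfatc1 at 1.45 (from 2.03) and Irf4 at 2.28 (from 1.51), and neither Nfatc2 nor Irf4 was counted there.

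Id2 and Stat4 went the other way. Id2, which favours effector over memory fates, was at 1275 CPM (1218 to 1334) in untreated members and 616 CPM (600.0 to 632) in treated members, 2.07-fold lower (1.96 to 2.18). Stat4, which carries interleukin 12 signals, was 1.63-fold lower (1.37 to 1.93), at 118 and 72.2 CPM. Eomes at 72.2 and 68.9 CPM, Batf at 59.9 and 63.5 CPM and Ikzf2, the gene of Helios, at 462 and 426 CPM had intervals of the ratio that covered 1. Prdm1 (Blimp-1), Maf and Tox2 were below the minimum, with Tox2 at 0 UMIs in untreated and 1 UMI in treated members. Without members of other lineages, Stat4 was at -0.39 (from -0.71), Batf at 0.73 (from 0.08) and Ikzf2 at 0.17 (from -0.12). Under the alternative settings that gave a ratio, the median of the factor list lay between 0.31 and 0.71. As a difference of mean deposited values, which is on another scale, it was 0.12.

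**Figure D2:**
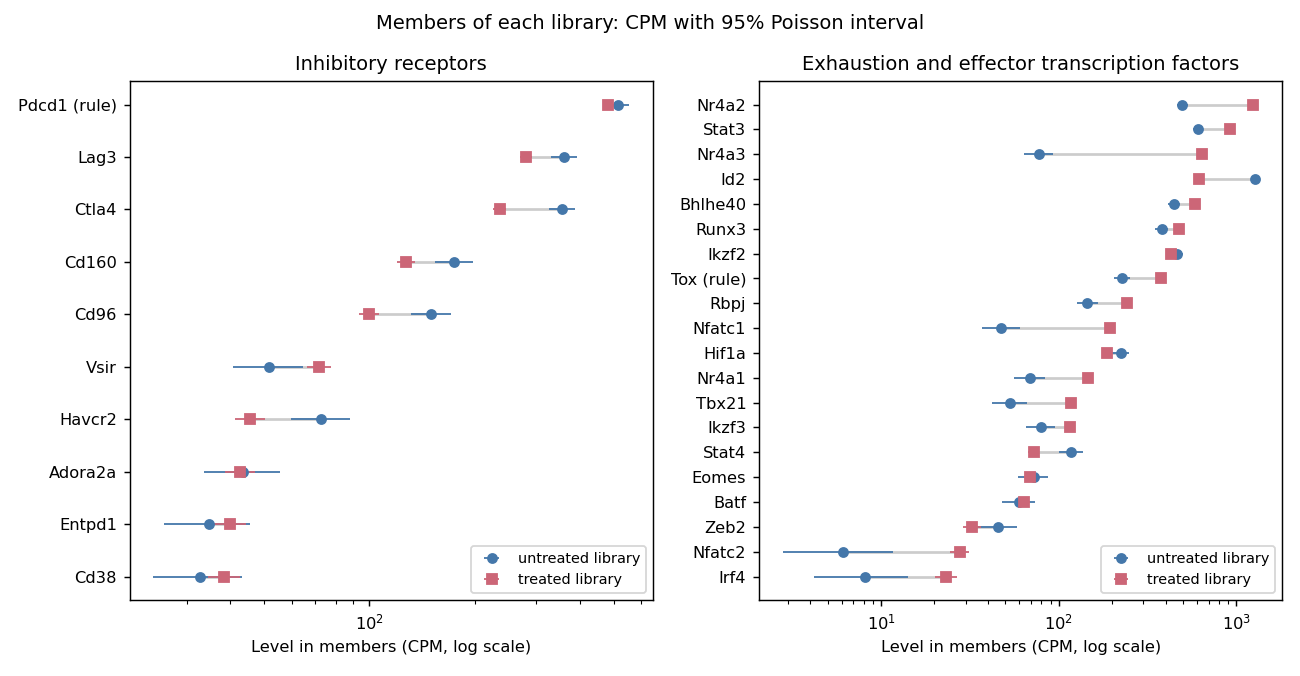
Level (CPM, log scale) of each measured inhibitory receptor gene (left) and transcription factor gene (right) in the untreated and treated members, with Pdcd1 and Tox, which the rule used, marked; bars are exact 95% Poisson intervals. Lag3, Ctla4, Cd160, Cd96 and Havcr2 lie lower in treated members, while Nr4a2, Nr4a3, Nfatc1 and Nr4a1 lie higher and Id2 lower.

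Genes of the immediate early response differed in both directions. Of 18 measured, 8 were higher (background 34.8%) and 2 lower (background 14.3%), with a median of 0.46. Crem, a cyclic AMP-responsive repressor, was at 240.3 CPM (216 to 267) in untreated members and 1244 CPM (1221 to 1267) in treated members, 5.18-fold higher (4.66 to 5.77). Fosl2, a Fos-related AP-1 subunit, was at 205 CPM (182 to 229) in untreated members and 847 CPM (829 to 867) in treated members, 4.14-fold higher (3.69 to 4.66). Without other-lineage members Crem was at 3.39 (from 2.37), Jun at -2.24 (from -0.66) and Fos at -1.09 (from -0.61), and Fos was not counted. Fosb, Zfp36l2, Btg1, Zfp36 and Nfkbid were the others counted higher besides Egr1. Jun and Fos, which form the classical AP-1 dimer, were the 2 counted lower, at 100.1 and 63.2 CPM and at 34.0 and 22.3 CPM, with Jun at a log2 ratio of 0.14 under the rule applied after thinning, against -0.66.

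ERK pathway output genes differed in both directions in members. Of 8 measured, 5 were higher and 2 lower, and the median was 0.96. It came to 1.76 on 6 genes without members carrying other-lineage UMIs, and to 0.28 with a minimum of 10 UMIs, where 14 genes entered. Egr1, a zinc finger factor induced by ERK, was at 16.3 CPM (10.5 to 24.3) in untreated members and 142 CPM (134 to 149) in treated members, 8.66-fold higher (5.80 to 13.6). Phlda1 was at 44.2 and 133 CPM, and the feedback genes Dusp5, a phosphatase of nuclear ERK, and Spry2, a Sprouty inhibitor, at 164 and 312 CPM and at 25.2 and 53.8 CPM. Spred2 was the fifth. Dusp6, the phosphatase of cytoplasmic ERK and a widely used readout of the pathway, was at 42.2 CPM (32.4 to 54.1) in untreated members and 13.1 CPM (10.9 to 15.7) in treated members, 3.22-fold lower (2.33 to 4.41), and Ier3 at 66.7 and 22.7 CPM. Myc and Dusp4 were below the minimum, at 5.45 and 2.09 CPM and at 28.6 and 19.1 CPM. Without other-lineage members Dusp5 was at 0.31 (from 0.93), Spry2 at 1.91 (from 1.09), Ier3 at -2.44 (from -1.55) and Myc at -2.09 (from -1.38), and Dusp5 was not counted. Dusp4, just within 1.5-fold over all members, was at -0.70 there, past that limit. In gate cells with neither Pdcd1 nor Tox, Dusp6 was at 10.7 and 8.19 CPM and Egr1 at 37.3 and 184 CPM.

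The 39 receptor signalling genes, all of them measured, had a median of 0.11, below that of all genes and -0.12 with the median ratio set to 1, with 11 higher and 2 lower. Braf, a target of BGB-283, was at 21.1 and 76.8 CPM. Map2k1, which encodes MEK1, the target of Trametinib, was 1.80-fold lower (1.38 to 2.33), at 53.1 and 29.4 CPM, but had a log2 ratio of 0.21 in members thinned after selection and of 0.88 without other-lineage members. Sh2d1a, the gene of the adaptor SAP, was at 212 and 85.5 CPM. These are RNA levels, and kinase activity was not measured.

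**Figure D3:**
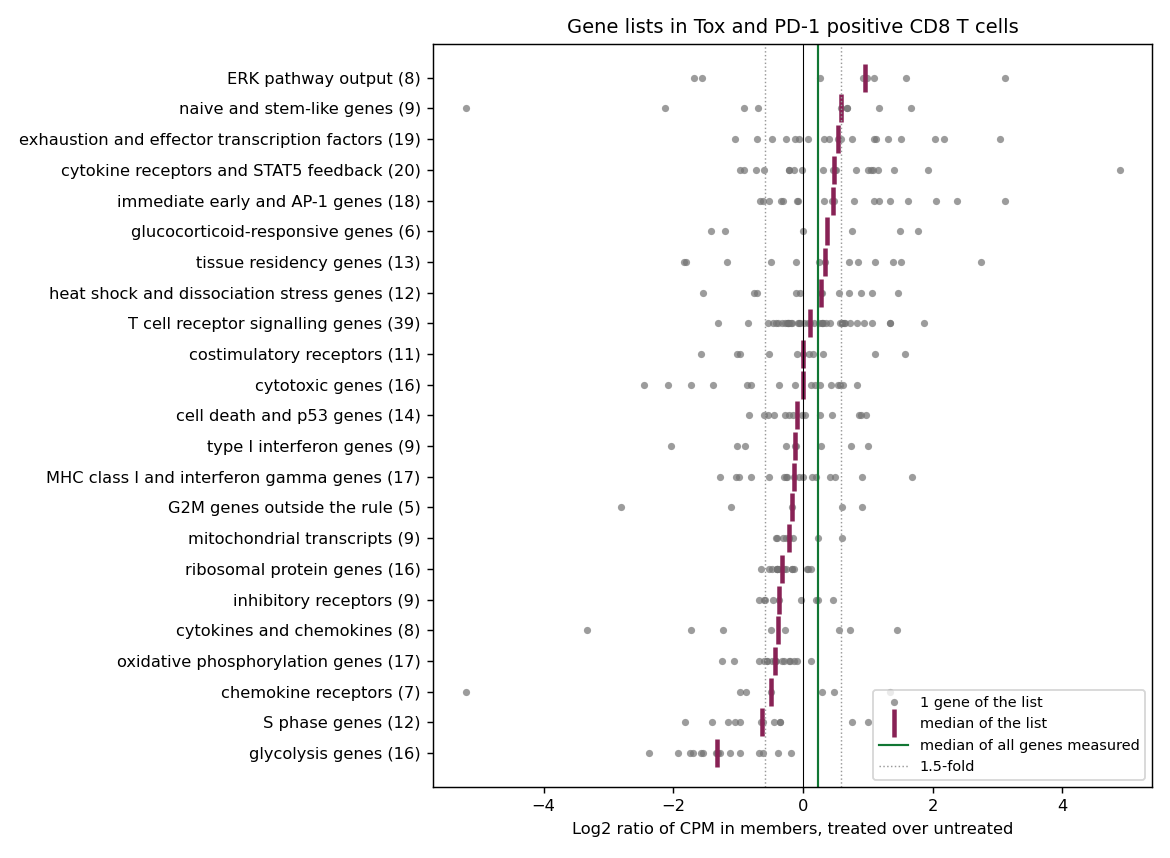
Log2 ratio of CPM, treated over untreated, of each measured gene of 23 lists in members (grey points), with the list median (bars), the median of all genes measured (green line, 0.24) and the 1.5-fold limits (dotted lines); the number of genes is given after each list name. Glycolysis genes have the lowest median, -1.32, and ERK pathway output genes the highest, 0.96, with points on both sides of 0.

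Perforin and granzyme B transcripts were lower in treated members. Among 16 cytotoxic genes measured, 6 were lower (Gzma, Prf1, Serpinb6b, Gzmb, Cst7 and Klrk1), 2 higher (Fasl and Klrd1) and 8 neither. Their median was 0.00 and changed sign under 10 of 16 alternatives, so no direction is given for the list. Prf1, which encodes the pore-forming protein perforin, was at 384 CPM (353 to 417) in untreated members and 90.9 CPM (84.8 to 97.4) in treated members, 4.22-fold lower (3.79 to 4.70). Granzyme B, from Gzmb, was at 821 CPM (775 to 869) in untreated members and 313 CPM (302 to 325) in treated members, 2.62-fold lower (2.45 to 2.81). Without members carrying other-lineage UMIs the log2 ratios were -2.02 for Prf1 and -1.13 for Gzmb, against -2.08 and -1.39. Gzma was at 59.9 and 10.9 CPM, but 1 cell held 62.5% of its UMIs in untreated and 98.0% in treated members, and only 5 and 3 members had any. Fasl, the death ligand gene, was at 80.3 CPM (66.5 to 96.2) in untreated members and 144 CPM (136 to 152) in treated members, 1.79-fold higher (1.48 to 2.18). Gzmk, at 70.1 and 76.5 CPM, and Nkg7, a granule protein gene, at 2182 and 2628 CPM, were within 1.5-fold. Without other-lineage members Klrd1 was at 0.37 (from 0.61), Nkg7 at -0.14 (from 0.27) and Gzmk at -0.16 (from 0.13), and Klrd1 was not counted.

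Few cytokine genes reached the minimum in members. Of 8 measured, Ccl4 and Tgfb1 were higher and Xcl1, Areg and Spp1 lower. Ccl5, a chemokine of effector and memory CD8 cells, was at 2486 CPM (2406 to 2568) in untreated members and 3641 CPM (3602 to 3681) in treated members, 1.46-fold higher (1.42 to 1.52). Ccl4 was at 34.7 and 94.8 CPM, with 307 of 1233 treated members holding a UMI, but had log2 ratios of -1.84 when the Tcf7 and Ifng conditions were dropped and -0.54 with the rule applied after thinning. Xcl1, a ligand for cross-presenting dendritic cells, was at 82.4 and 8.16 CPM, with 52.1% of the untreated UMIs in 1 cell, and its log2 ratio was 0.35 without members holding Ccr7. Without the other-lineage members Ccl5 was at -0.21 (from 0.55), Ccl4 at 0.01 (from 1.45) and Xcl1 at -5.38 (from -3.34), so the direction of Ccl5 turned and Ccl4 did not differ beyond its interval. Areg had 48.8% of its untreated UMIs in 1 cell. Il2, Tnf and Il10 were below the minimum.

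Of 11 costimulatory receptors measured, Tnfrsf4, Tnfrsf9 and Tnfrsf18 were lower and Tnfrsf1b and Icos higher in treated members. Tnfrsf4 (OX40) was at 513 CPM (477 to 551) in untreated members and 172 CPM (163 to 180.4) in treated members, 2.99-fold lower (2.74 to 3.26), Tnfrsf9 (4-1BB) at 637 and 323 CPM and Tnfrsf18 (GITR) at 419 and 206 CPM. Tnfrsf1b, the gene of the second TNF receptor, was at 88.5 and 263 CPM, and Icos at 111 CPM (94.6 to 129) in untreated members and 240.0 CPM (230.0 to 250.3) in treated members, 2.16-fold higher (1.84 to 2.55). The other 6 were neither, and the list median of 0.00 changed sign under 11 of 16 alternatives. Among 20 cytokine receptor and STAT5 feedback genes, 8 were higher (background 34.8%) and 4 lower (background 14.3%), with a median of 0.48. Il2rb, the shared beta chain of the interleukin 2 and 15 receptors, was at 585 CPM (546 to 625) in untreated members and 1175 CPM (1153 to 1197) in treated members, 2.01-fold higher (1.87 to 2.16), while Il2ra was at 35.4 and 30.5 CPM. The interleukin 10 receptor gene Il10ra was at 61.3 and 31.3 CPM. Il7r, the receptor that maintains naive and memory T cells, was at 68.7 and 36.5 CPM, with a log2 ratio of 0.26 without other-lineage members. Under that filter Tnfrsf4 was at -0.79 (from -1.58), Tnfrsf9 at -0.55 (from -0.98), Icos at 0.55 (from 1.11), Tnfrsf1b at 2.73 (from 1.57), Il10ra at -1.66 (from -0.97) and Il2ra at 0.18 (from -0.21), and Tnfrsf9 and Icos were not counted.

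Genes of naive and stem-like cells, of which the rule used Tcf7, were divided. Of 9 measured, Foxo1, Satb1, Myb, Bach2 and Foxp1 were higher and Ccr7, Klf2, Il7r and Ly6c2 lower, and the median was 0.59. It turned to -0.70 with a minimum of 10 UMIs, which admits low genes such as Slamf6 and Dapl1, to -1.07 without the Tcf7 and Ifng conditions and to -0.10 with no cycle gene or granzyme C to G allowed. That last setting kept 36 untreated and 692 treated members, so its ratios rest on few untreated cells. Foxo1, a factor of quiescence, was at 46.3 CPM (35.9 to 58.7) in untreated members and 148 CPM (139.9 to 156) in treated members, 3.19-fold higher. Klf2, which drives exit from tissue, was at 67.4 CPM (54.8 to 82.0) in untreated members and 15.4 CPM (13.0 to 18.2) in treated members, 4.37-fold lower (3.34 to 5.69). Ccr7, the lymph node homing receptor, was at 583 CPM (545 to 624) in untreated members and 15.9 CPM (13.4 to 18.7) in treated members, 36.8-fold lower (30.8 to 44.2), with 857 UMIs in 54 of 130 untreated members and 144 UMIs in 51 of 1233 treated members. Without other-lineage members Ccr7 was at -3.01 (from -5.20), Klf2 at -3.42 (from -2.13) and Satb1 at 0.29 (from 1.17), and Satb1 was not counted.

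Of 13 tissue residency genes, 6 were higher (background 34.8%) and 3 lower (background 14.3%), with a median of 0.34. The collagen-binding integrin gene Itga1 was at 4.08 and 27.4 CPM and the hyaluronan receptor gene Cd44 at 55.1 CPM (43.8 to 68.5) in untreated members and 158 CPM (149.7 to 166) in treated members, 2.86-fold higher (2.29 to 3.62). Cd69, an early activation and retention marker, was 3.50-fold lower (2.65 to 4.61), at 57.2 and 16.3 CPM, and the actin-capping gene Capg at 366 and 103 CPM. The homing receptor gene Cxcr6 was within 1.5-fold, at 368 and 262 CPM, and Itgae, at 3.40 and 2.09 CPM, was below the minimum. Without other-lineage members Cxcr6 was at -1.43 (from -0.49), Cd69 at -3.10 (from -1.81) and Itga1 at 2.40 (from 2.75), so Cxcr6 passed the 1.5-fold limit there and the interval of Itga1 covered 1.

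Glycolysis genes were lower almost without exception. Of 16 genes from glucose uptake to lactate export, all of them measured, 14 were lower and 0 higher, and the median was -1.32. The triose phosphate isomerase gene Tpi1 was at 629.6 CPM (589.7 to 672) in untreated members and 122 CPM (115 to 129) in treated members, 5.18-fold lower (4.74 to 5.66), and the phosphofructokinase gene Pfkl at 107 and 28.1 CPM. The hexokinase genes Hk1 and Hk2, at 62.6 and 54.9 CPM and at 35.4 and 27.0 CPM, were the 2 exceptions, with intervals that covered 1. The median was -0.92 without members carrying other-lineage UMIs, with 10 of 16 lower and Hk1 and Hk2 at 0.32 and 1.46. It lay between -1.56 and -0.92 over the alternatives that gave a ratio. As a difference of mean deposited values, which is on another scale, it was -0.57. In Pdcd1-positive cells with Tcf7 the same 16 genes had a median of -0.86, and in gate cells with neither Pdcd1 nor Tox of 0.04, where Tpi1 was at 105 and 74.2 CPM. Oxidative phosphorylation genes had a median of -0.44, with 4 of 17 lower (Sdhb, Uqcrc1, Cycs and Atp5b) and 0 higher.

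Proliferation and stress lists were mixed. S phase genes had 7 of 12 lower and 2 higher: the replicative helicase gene Mcm5 was at 57.2 and 16.2 CPM, while the sliding clamp gene Pcna was at 90.5 and 182 CPM. Their median of -0.63 changed sign under 4 of the 16 alternatives. It was 0.29 on 9 genes with no cycle gene or Gzmc to Gzmg allowed, a setting that kept 36 untreated and 692 treated members. Of the G2M genes outside the rule 5 were measured, with Ube2c at 56.5 and 8.05 CPM and Tubb4b at 112 and 209 CPM. Interferon and MHC lists had medians of -0.13 and -0.15. Irf7, a factor that amplifies interferon responses, was at 71.5 and 17.4 CPM, and the immunoproteasome subunit gene Psmb9 at 395 and 162 CPM, against Nlrc5, the activator of MHC class I genes, at 34.0 and 109 CPM. For cell death and p53 targets the median was -0.09, and the survival genes Bcl2l1 and Mcl1 were at 31.3 and 61.5 CPM and at 242 and 451 CPM, the pore-forming death gene Bak1 at 81.7 and 46.1 CPM. Heat shock genes had a median of 0.29, with the cochaperone gene Dnaja1 at 355 and 975 CPM and Hspa1a at 68.1 and 23.4 CPM, of whose untreated UMIs 67.0% lay in 1 cell. Without other-lineage members Irf7 was at -2.79 (from -2.04), Bak1 at -0.54 (from -0.83) and Hspa1a at -0.24 (from -1.54), and Bak1 and Hspa1a were not counted. Glucocorticoid-responsive genes had a median of 0.38, ribosomal protein genes of -0.33, mitochondrial transcripts of -0.22 and chemokine receptors of -0.49. Of these lists, the cell death and G2M medians changed sign under 5 of the 16 alternatives each, the chemokine receptor median under 3 and the glucocorticoid median under 2.

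The genes with the highest ratios by the interval bound nearest 1 included transporters of lipid efflux. Abca1 had 0 UMIs in untreated members and was at 28.4 CPM in treated members, at least 13.9-fold higher against a floor of 3 UMIs over all untreated members. Its relative Abcg1 was at 2.72 CPM (0.742 to 6.97) in untreated members and 92.0 CPM (85.9 to 98.5) in treated members. Zc3hav1l had 1 UMI in untreated members and 506 in treated ones, a ratio of 81.9 with an interval from 14.6 to 3243. The lipid desaturase gene Scd2 was at 11.6 and 116 CPM, the autophagy kinase gene Ulk1, with 2 untreated UMIs, at 1.36 and 28.7 CPM, and Zfp703, a transcriptional corepressor gene, at 4.08 and 75.2 CPM. Jmy at 10.2 and 130.1 CPM, the noncoding RNA Lncpint at 7.49 and 96.0 CPM and Osgin1, an oxidative stress response gene, at 14.97 and 132 CPM were also among the 12, with Nr4a3 and Egr1. Apoe, a lipoprotein gene of macrophages, completed the 12 and had 53.6% of its treated UMIs in 1 cell and a log2 ratio of 0.25 without other-lineage members, against 3.40. Apoe is itself on the macrophage list of that filter, so members with 2 or more of its UMIs were left out by construction. Under that filter Abcg1 was at 4.16 (from 5.08), Jmy at 4.76 (from 3.67), Osgin1 at 4.82 (from 3.14) and Lncpint at 1.96 (from 3.68), and Abca1, Zc3hav1l, Zfp703 and Ulk1 gave no ratio. In cells with neither Pdcd1 nor Tox, Abcg1 was at 47.3 and 105 CPM and Osgin1 at 0.624 and 37.2 CPM.

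Among the 12 lowest, 4 were hemoglobin genes whose UMIs lay almost entirely in 1 untreated cell. The others were Ccr7, Ccdc184 at 59.9 and 3.31 CPM, the proenkephalin gene Penk at 69.4 and 5.84 CPM, the trefoil factor gene Tff1 at 192 and 19.95 CPM, Xcl1, Tmem158 at 66.7 and 6.72 CPM, Sdhaf1, an assembly factor gene of respiratory complex II, at 68.1 and 8.27 CPM, and Il1r2, a decoy receptor for interleukin 1, at 201 and 28.9 CPM. Without other-lineage members Ccdc184 was at -2.79 (from -4.18), Penk at -2.92 (from -3.57), Tff1 at -1.90 (from -3.27), Xcl1 at -5.38 (from -3.34) and Il1r2 at -1.30 (from -2.80).

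Compared with Pdcd1-positive CD8 cells that had Tcf7 (120 untreated and 70 treated cells), members had fewer transcripts of naive and stem-like genes and more of Entpd1, Havcr2 and Prf1. Tox was not required of the cells with Tcf7, of which 64 untreated and 37 treated ones had a Tox UMI. Of 3757 genes measured in the untreated library, 16.3% passed the 1.5-fold limit in either direction, and of 5224 in the treated library 10.8%. In both libraries alike, 106 of 3567 genes were higher in members (2.97%) and 76 lower (2.13%). Those counts were 5 and 0 when groups were chosen and counted after thinning, and 22 and 7 without cells carrying other-lineage UMIs. The 8 highest were Igfbp7, Irf8, Epas1, Gldc, Hilpda, Serpinb9b, Serpinb9 and Entpd1. Irf8, an interferon regulatory factor, was 2.42-fold and 2.28-fold higher in the untreated and treated libraries, Epas1, which encodes the hypoxia factor HIF-2 alpha, 3.28-fold and 2.63-fold, and Entpd1 4.04-fold and 6.62-fold. Hilpda, a lipid droplet protein gene induced by hypoxia, was 3.70-fold and 2.13-fold higher, and Serpinb9, which protects killer cells from granzyme B, 2.04-fold and 1.97-fold.

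The 8 lowest against these cells were Klf2, Fos, Lef1, S1pr1, Klf3, Emb, Fcer1g and Tyrobp. Lef1, a partner of Tcf7, was 10.7-fold and 8.17-fold lower in members, and S1pr1, the receptor for exit from tissue, 10.7-fold and 45.6-fold. Fcer1g and Tyrobp encode signalling adaptors of natural killer and myeloid cells, and Fcer1g was 4.19-fold and 4.94-fold lower. Of the naive and stem-like genes 13 of 14 were lower in the untreated library (background 6.71%) and 10 of 11 in the treated library (background 4.04%), with Il7r 2.69-fold and 2.44-fold lower. The groups were split by Tcf7 itself, and only members had to hold Tox, so these counts describe the split and are no independent result. Of 9 inhibitory receptors, 3 were higher in untreated members (background 9.64%) and 4 in treated members (background 6.78%). Havcr2 was 5.64-fold and 2.01-fold higher in members and Prf1 5.52-fold and 1.83-fold. Gzmb was 6.06-fold and 1.48-fold higher, past the 1.5-fold limit in the untreated library alone, and the difference between the libraries was not tested. Members and Pdcd1-positive cells with Tcf7 had Nr4a3 within 1.5-fold of each other in both libraries, at 83.2 and 547 CPM with Tcf7.

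Compared with gate cells that had neither Pdcd1 nor Tox (2036 untreated and 708 treated), members had more of the inhibitory receptor transcripts and less of the naive and stem-like ones. Past the 1.5-fold limit were 40.7% of 4769 genes in the untreated and 27.9% of 5482 in the treated library, and 642 of 4370 genes (14.7%) were higher and 244 (5.58%) lower in both. The counts in both were 43 and 52 after thinning, and 311 and 109 without cells carrying other-lineage UMIs. The reference cells were of unlike makeup, with Tcf7 UMIs in 1571 of 2036 untreated and 343 of 708 treated cells, and had 5732 and 5647.5 median UMIs, fewer than members. A cell with 0 UMIs of a gene may still express it.

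The 8 highest were Lag3, Tnfrsf9, Tnfrsf4, Irf8, Gldc, Serpinb9b, Dusp14 and Nrn1, and Lag3 was 60.2-fold and 6.52-fold higher in members of the untreated and treated libraries. The smaller difference under treatment came with higher levels in the reference cells, where Lag3 was at 6.003 and 42.9 CPM, Ctla4 at 16.4 and 73.7 CPM, Havcr2 at 4.91 and 19.6 CPM and Gzmk at 2.81 and 70.5 CPM in the untreated and treated libraries. Inhibitory receptors had 7 of 8 measured higher in untreated members (background 27.6%) and 8 of 10 in treated members (background 20.8%). Among the 8 lowest were Klf2, Lef1, S1pr1, Il6ra, Dapl1, Treml2 and Tmem108. Of the naive and stem-like genes, 14 of 15 were lower in untreated members (background 13%) and 15 of 16 in treated members (background 7.11%). The rule chose members for Pdcd1 and Tox and against Tcf7, so the receptor and naive counts describe the split and are no independent result. Klf2 was 19.1-fold and 16.1-fold lower and Lef1 35.8-fold and 20.2-fold. Between the libraries, the reference cells had levels of 27.1 and 385 CPM for Nr4a3, 37.7 and 492 CPM for Crem and 66.2 and 519 CPM for Fosl2, so these 3 were higher under treatment in cells that lacked Pdcd1 and Tox UMIs as well. Prf1, at 40.3 and 40.0 CPM, and Gzmb, at 89.3 and 247 CPM, had these levels in the untreated and treated reference cells.

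**Figure D4:**
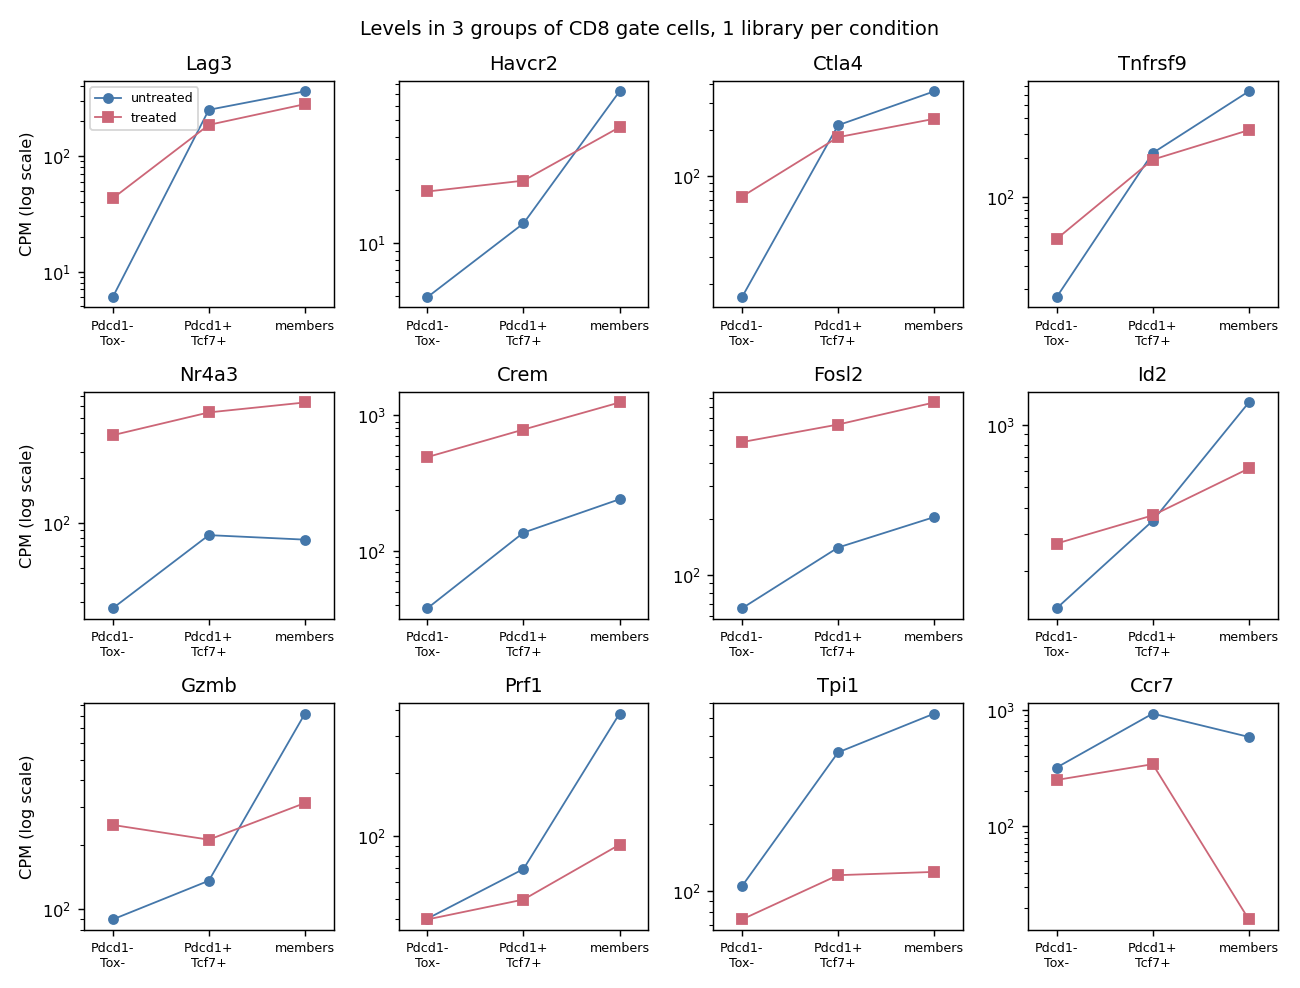
Level (CPM, log scale) of 12 genes in gate cells with neither Pdcd1 nor Tox, in Pdcd1-positive cells with Tcf7 and in members, for the untreated (circles) and treated (squares) libraries; each point is 1 library and lines join the points of a library only to guide the eye. Nr4a3, Crem and Fosl2 lie higher in the treated library in all 3 groups, whereas Gzmb, Prf1 and Id2 are lower in treated than in untreated members (313 against 821, 90.9 against 384 and 616 against 1275 CPM).

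Members varied among themselves. By Tox UMIs, 48 untreated members had 1, 29 had 2 and 53 had 3 or more, and 371, 310 and 552 treated members did so. Gzmb was at 1137, 918 and 555 CPM over these classes in the untreated library and at 363, 317 and 283 CPM in the treated library, lower with more Tox in both. Ccl5 was at 3651, 2392 and 1732 CPM in untreated and between 3537 and 3811 CPM in treated members. Nr4a3 lay between 629.8 and 642 CPM in every treated class, and was at 58.6, 62.2 and 98.4 CPM in the untreated classes. Lag3 was at 456, 332 and 312 CPM in the untreated classes. In treated members with 1 UMI of Tox it was at 257.5 CPM, against 280.0 CPM over all treated members. The classes with more Tox also had more UMIs per cell, with medians of 8385, 10416 and 12043 in untreated and 6446, 6647.5 and 7282 in treated members, and the part of depth was not tested.

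Members with a Havcr2 UMI (62 of 130 untreated and 303 of 1233 treated) had more Prf1 than members without in both libraries, and more Gzmb in the untreated library. Without and with Havcr2, Gzmb was at 495 and 1102 CPM in untreated members and at 291 and 368 CPM in treated members. Prf1 was at 241 and 507 CPM and at 77.6 and 124 CPM, so in both libraries its level was higher with Havcr2, by 2.10-fold (1.75 to 2.54) and 1.59-fold (1.38 to 1.84). In treated members Gzmb stayed under the 1.5-fold limit, at 1.26-fold (1.17 to 1.37), and Nkg7, at 2627 and 2629 CPM, was alike. Lag3 differed less, at 332 and 387 CPM and at 269 and 308 CPM. Detection of a Havcr2 UMI depends on depth, whose part was not tested.

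**Figure D5:**
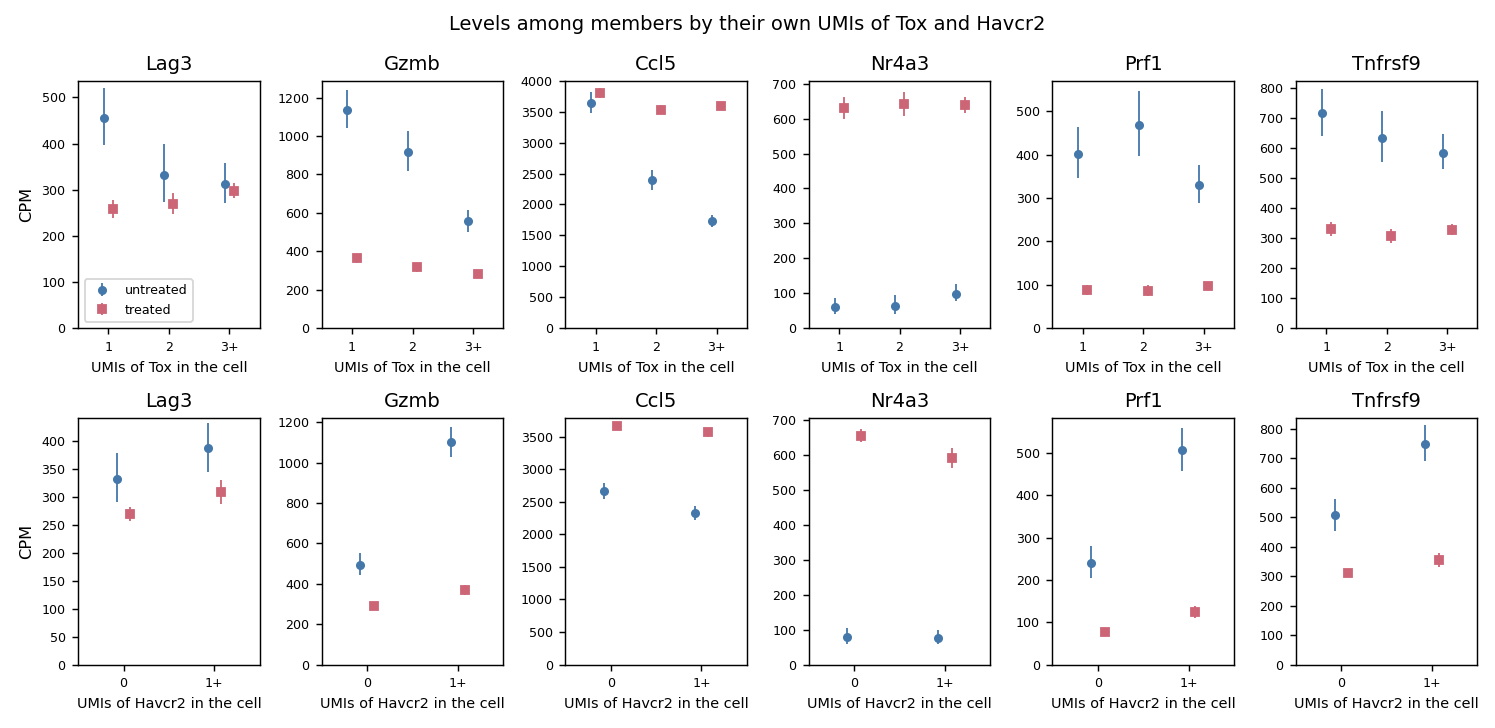
Level (CPM) of 6 genes in untreated (circles) and treated (squares) members, by the members' own UMIs of Tox (top row) and of Havcr2 (bottom row); bars are exact 95% Poisson intervals over the UMIs of each class. Gzmb is lower with more Tox UMIs and higher with a Havcr2 UMI in both libraries, while Nr4a3 separates the libraries in every class.

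Members with a Ccr7 UMI, a split chosen after its values were seen, were 54 untreated and 51 treated cells. Without and with Ccr7, untreated members had Ccl5 at 3543 and 1441 CPM, Gzmb at 1081 and 564 CPM and Cxcr6 at 490.3 and 246 CPM, lower with Ccr7, while Tnfrsf4, at 368 and 656 CPM, was higher. Pdcd1, at 519 and 513 CPM, and Lag3, at 356 and 367 CPM, were alike. Il1r2 was at 76.7 and 325 CPM, Tff1 at 86.3 and 296 CPM and Ccdc184 at 17.8 and 101.5 CPM. Dendritic cell genes went with Ccr7 as well, at 253 and 2669 CPM summed over the list, with 10 or more of their UMIs in 1 of 76 members without and 15 of 54 members with Ccr7. Fscn1 and Ccl22, markers of migratory dendritic cells that hold Ccr7, were seen in 3 and 0 of the 54. Fscn1 was also seen in 2 of 76 untreated and 68 of 1182 treated members without Ccr7, and Ccl22 in no member. Markers this rare cannot show whether dendritic cell RNA was present. The part of dendritic cell RNA in the Ccr7 level was not tested. With these members left out of both libraries, Prf1 had a log2 ratio of -2.28, Gzmb -1.77, Nr4a3 3.33 and Id2 -0.95. In treated members Ccl5, Gzmb and Cxcr6 were also lower and Tnfrsf4 higher with Ccr7. Other genes went opposite ways: without and with Ccr7, Ccl4 was at 53.4 and 16.2 CPM in untreated and 77.3 and 404 CPM in treated members. Klf2 was at 98.6 and 36.5 CPM in untreated and 13.7 and 45.4 CPM in treated members.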

How the data were processed

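Single cells of 2 libraries were profiled with the 10x Genomics 3′ assay. Cell Ranger and Seurat were used, per the submitters' processing notes, which also name GRCh38 although the gene symbols are those of mouse, and no coordinates are printed. The values that the authors deposited are the natural log of 1 plus UMIs scaled to 10000 per cell, for 15121 genes and 17390 cells. Dividing by the smallest step of each cell gave whole UMIs for 100.0% of 38204229 nonzero values (tolerance 0.01). The table held 0 columns of other samples. Cells were assigned to libraries by the suffix of their names, matched to the labels' cell numbers. Library totals were 95349992 (untreated) and 58318786 UMIs (treated), with medians of 6155 and 5987.5 UMIs per cell.

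UMIs were summed over members per library and given as CPM with exact Poisson intervals, and shares with Clopper-Pearson intervals. Ratios used exact conditional intervals. Genes entered with at least 50 UMIs and 20 CPM in the members of 1 library, and a difference was counted at 1.5-fold or more with an interval that excluded 1. A single library per condition allows no p-value. Thinning kept 2000 UMIs per cell. Named genes were the marker and rule genes, the highest and lowest of each list, the 12 highest and 12 lowest by the interval bound nearest 1, and the 8 highest and 8 lowest in both libraries against other CD8 cells. Other list genes are named where they were counted, and some are not reported here. The members and lists were chosen with earlier results of these data known. The automatic Scrublet call marked 0.0107% and 0.0124% of cells and was taken not to have worked, so doublets stayed in, and the highest 5% of scores were left out as an alternative. Other alternatives changed the rule, the minimum, the scaling and the depth, and the Ccr7 split was chosen after values were seen. The steps were tested on simulated data. The tools were scanpy 1.11.5, matplotlib 3.10.9, scipy 1.17.1, numpy 2.4.6 and pandas 2.3.3 under Python 3.11.15.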

Additional observations from a re-analysis of the deposited data

Results flagged for a closer look

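In 6 instances a gene lay higher in members than in another CD8 group in 1 library and lower in the other, and none of these differences between the libraries was tested. On the log2 scale, members over Pdcd1-positive cells with Tcf7, Il1r2 was at 1.06 without and -0.99 with treatment, Gzma at 2.93 and -3.39, and Ier3 at 0.90 and -1.26. Members over gate cells with neither Pdcd1 nor Tox, Ccr7 was at 0.87 and -3.97, Apoe at -1.35 and 1.51, and Gzma at 0.81 and -2.45. Single cells weigh on several of these: 1 cell held 98.0% of the Gzma UMIs and 53.6% of the Apoe UMIs of treated members, and 34.8% of the Il1r2 UMIs of untreated members lay in 1 cell.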

How the results depend on the processing

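No paired analysis was possible because each group had 1 library. With 1 library per group, no library could be left out. Of 2711 values of 173 named genes under 16 alternatives, 2076 lay inside the counting interval of the main value and 612 did not. The other 23, of genes counted as different, changed sign. For the difference of mean deposited values, which is on another scale, only the sign was compared. Over all 173 genes, counted or not, 121 values had the opposite sign. The member share of the gate, untreated and treated, was 2.05% and 12.6% after thinning, 2.07% and 14.95% with at least 2 UMIs of Pdcd1 and Tox, 9.11% and 45.4% without the Tcf7 and Ifng conditions, and 1.40% and 15.3% of all cells. Without other-lineage cells the untreated share was 2.02%. Genes higher and lower in treated members numbered 901 and 439 without other-lineage cells, 457 and 167 with the rule thinned, and 492 and 293 at 100 CPM. With no cycle gene or Gzmc to Gzmg, which kept 36 untreated and 692 treated members, 1197 were higher. With median ratio scaling 1230 were lower, and with a minimum of 10 UMIs 1516 were lower. The inhibitory receptor median was -0.18 with at least 2 UMIs of Pdcd1 and Tox, -0.14 with no cycle gene or Gzmc to Gzmg and with the rule thinned, -0.60 with median ratio scaling and -0.52 at 100 CPM. Without other-lineage cells the transcription factor median was 0.71 and the ERK output median 1.76. The latter was 1.53 with the rule thinned and 0.28 with a minimum of 10 UMIs. The cytotoxic median was -0.35 with no cycle gene or Gzmc to Gzmg and -0.31 as a mean over cells. The naive median was -1.07 without the Tcf7 and Ifng conditions, -0.10 with no cycle gene or Gzmc to Gzmg and -0.70 with a minimum of 10 UMIs. Genes counted as different whose sign changed, on the log2 scale, were Il7r 0.26, Map2k1 0.88, Hspa1b 1.31, Tyrobp -1.47 and Nrn1 0.93 without other-lineage cells. They were Areg 0.39, Ccl4 -1.84 and Tyrobp -0.85 without the Tcf7 and Ifng conditions, and Irf9 -0.12 with no cycle gene or Gzmc to Gzmg. With the rule thinned they were Havcr2 0.14, Areg 0.26, Ccl4 -0.54, Map2k1 0.26, Jun 0.14 and Cd96 0.87. Tyrobp was at -0.0444 as a mean over cells, and Hspa1b at 0.00876 and Tyrobp at -0.0340 as a difference of mean deposited values. Against Pdcd1-positive cells with Tcf7, 5 genes were higher and 0 lower in both libraries after thinning, where fewer UMIs enter, and against cells with neither Pdcd1 nor Tox 43 and 52. Some alternatives were chosen after seeing the data. Members thinned after selection had 1055 genes higher, 489 lower, a receptor median of -0.22 and Map2k1 at 0.21. Without Ccr7-positive members Xcl1 was at 0.35, Areg at 3.64, Hspa1a at 0.21 and Nrn1 at 0.29. Without other-lineage cells the counts in both libraries were 22 and 7 against cells with Tcf7, and 311 and 109 against cells with neither. Where no construction is named, the cause was not tested. Depth limits genes under the minimum, and the 130 untreated members limit every ratio.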
